A study of Mus musculus with 18 samples.

Results

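The extracellular metalloproteinase family was taken as all protein-coding genes of the count table whose symbol is Mmp, Timp, Adamts or Adamtsl followed by a number, which gave 50 of 51912 genes. Of these, 46 passed the filter of at least 10 read pairs over the 18 libraries and were among the 24495 genes tested. The other 4 were close to silent, with 7 read pairs over all libraries for Mmp1b and 4 each for Mmp7, Mmp20 and Adamts19. Mmp1a has a matching name but is annotated as a polymorphic pseudogene and was left out.

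All cultures were primary cortical astrocytes from pups at postnatal day 0, prepared from equal numbers of male and female cortices. The pups were hemizygous for the Aldh1l1-EGFP/Rpl10a transgene of line JD130Htz, made on a B6;FVB background and bred to C57BL/6J. In these mice the Aldh1l1 promoter drives a GFP-tagged ribosomal protein L10a in astrocytes, so that ribosome-bound RNA of those cells can be pulled down with GFP antibodies by translating RNA affinity purification (TRAP). Dishes received 50 mM ethanol in serum-free medium or serum-free medium alone for 24 h. The TRAP fraction (IP) was sequenced from 6 control and 6 ethanol dishes, and the RNA before purification (input) from 3 control and 3 ethanol dishes that also gave an IP library. The replicates are dishes, and no source says that they came from separate litters, so p-values measure the spread between dishes.

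Matrix metalloproteinases (MMPs) are zinc enzymes that cut collagens, gelatin, proteoglycans and signalling proteins outside the cell, and most are made as inactive precursors. ADAMTS enzymes are secreted relatives, several of which cut the lecticans of brain extracellular matrix such as brevican, neurocan and versican, whereas ADAMTS-like proteins lack the catalytic domain. Tissue inhibitors of metalloproteinases (TIMPs) bind the active enzymes, and astrocytes are a known source of both enzymes and inhibitors.

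The libraries held between 74239854 and 132810705 read pairs assigned to genes, and no 2 libraries of a group agreed within sampling noise (the closest pair had a chi-square of 4.06 per degree of freedom). All 8 astrocyte markers examined were higher in IP, where their summed level was 1730 to 1926 CPM (read pairs of a gene scaled to the size of the library by TMM, edgeR's trimmed mean of M-values) against 1099 to 1179 in input. Microglial markers were lower in IP for 7 of 8 genes, with a median log2 fold change of -2.46 and a summed level of 9.54 to 12.8 CPM in IP against 57.2 to 71.0 in input. P2ry12, the microglial marker that was not called, was close to silent at 0.0709 CPM. Meningeal fibroblast markers were lower in IP for 6 of 8 genes and higher for 1, with a summed level of 1593 to 1846 CPM in IP and 1992 to 2133 in input and Lum close to silent at 0.0489 CPM. In bulk libraries fewer cells of a type and less RNA per cell cannot be told apart.

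Of the members, 9 MMP genes lie side by side on chromosome 9 within 427 kilobases (GRCm38, chr9:7272514-7699585), and 4 of the 6 of them that could be tested were lower in IP. The bases before the start sites of 5 of the cluster genes are shown because these neighbours differed between fractions in opposite directions. Each line holds the 120 bases directly before the RefSeq start, 5′ to 3′ on the plus strand of GRCm38.p6, with the letters TGANTCA (the core bound by AP-1 factors, N being any base, the same on both strands) and TATAAA, a core promoter element searched on both strands, in capitals.
Mmp13, chr9:7272394-7272513: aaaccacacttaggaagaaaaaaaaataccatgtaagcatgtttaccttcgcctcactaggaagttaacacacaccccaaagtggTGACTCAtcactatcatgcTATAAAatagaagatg
Mmp12, chr9:7347254-7347373: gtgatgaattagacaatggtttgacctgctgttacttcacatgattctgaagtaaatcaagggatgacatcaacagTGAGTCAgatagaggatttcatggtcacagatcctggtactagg
Mmp3, chr9:7445702-7445821: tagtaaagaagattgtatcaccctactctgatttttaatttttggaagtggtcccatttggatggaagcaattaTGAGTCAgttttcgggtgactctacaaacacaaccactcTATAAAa
Mmp10, chr9:7502222-7502341: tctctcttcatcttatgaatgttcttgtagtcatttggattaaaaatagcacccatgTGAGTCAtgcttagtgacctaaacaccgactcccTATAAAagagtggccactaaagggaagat
Mmp8, chr9:7558309-7558428: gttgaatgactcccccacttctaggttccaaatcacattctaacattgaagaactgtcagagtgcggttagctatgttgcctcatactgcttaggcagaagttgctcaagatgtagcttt
In Mmp13 the TGANTCA match begins 35 bases before the start, in Mmp12 44 bases, in Mmp3 46 bases and in Mmp10 63 bases. The same search covered windows of 250 bases before to 50 after the start, available for 35 of the 50 members. It found TGANTCA in 7 members, all of them among the 9 genes of the chromosome 9 cluster. That was 7 of the 38 windows of members, whereas 7.81% of all 32851 promoter windows held it. TATAAA was found in 11 members and in 13.6% of all windows. In Mmp8 its match was on the other strand and began only 3 bases before the start, and in Mmp12 it did not begin before the start. Neither match is therefore in capitals in the lines above. Mmp12 has more than 1 window, and the one shown was chosen because it alone held TGANTCA. The match was present in Mmp13, Mmp12 and Mmp10, which were lower in IP, and also in Mmp3, which was higher. It was absent from Mmp8, which was lower in IP as well. Mmp1b, Mmp7 and Mmp20, which also held it, were close to silent.

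Levels between genes were compared per length, as TMM-scaled CPM per kilobase of the longest annotated transcript. Inhibitor transcripts dominated the family. The 4 TIMPs made up 70.9% of the family's summed level per length in input and 69.9% in IP, the 19 tested MMPs 21.7% and 22.6%, the 18 ADAMTS enzymes 3.65% and 3.98%, and the 5 ADAMTS-like genes 3.71% and 3.49%. Timp2, which besides inhibiting MMPs takes part in the activation of pro-MMP2 at the cell surface, alone accounted for 57.7% in input and 56.4% in IP. It was followed in input by Mmp3 (stromelysin-1), Timp3 (the matrix-bound inhibitor that also blocks ADAM and ADAMTS enzymes), Mmp14 (the membrane-type enzyme that activates MMP2) and Timp1, at 95.6, 89.2, 69.8 and 60.2 CPM per kilobase. Mmp3 and Timp3 exchanged places between input control and input ethanol libraries. The order rests on unstranded counts, and for Timp3 the counting matters (given with the strand results).

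**Figure D1:**
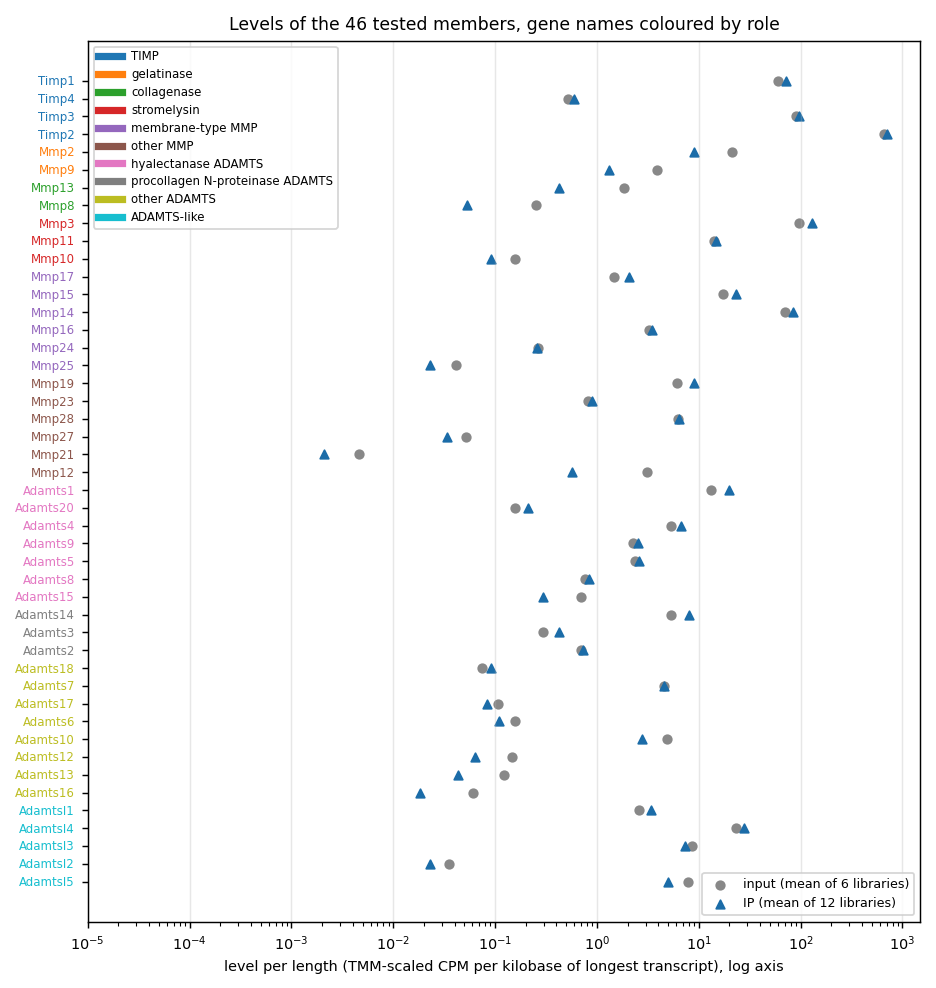
Level per length of each of the 46 tested members (TMM-scaled CPM per kilobase of longest transcript, log axis), with circles for the mean of 6 input and triangles for the mean of 12 IP libraries and gene names coloured by role. Timp2 stood at 653 in input and 709 in IP, and Mmp3, Timp3, Mmp14 and Timp1 formed the next group.

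The first comparison asked which members were enriched in the ribosome-bound RNA of the tagged astrocytes relative to the whole culture. With all 18 libraries and a treatment term in edgeR's quasi-likelihood test, 34 of 46 tested members differed between IP and input (19 higher, 15 lower in IP; adjusted p below 0.05), against 51.0% of all genes tested (25.2% higher, 25.8% lower). Of the 34 members whose mean reached 1 CPM, 27 differed, against 76.3% of all genes at that level, so the members differed about as often as other expressed genes. The median log2 fold change was 0.05 over the members and -0.03 over all genes. IP and input libraries did not overlap for 23 members, 11 higher and 12 lower in IP, against 25.0% of all genes (13.1% higher, 11.9% lower).

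The largest differences between fractions were among the members lower in IP. Mmp12, the macrophage elastase, was 5.42-fold lower in IP (log2 -2.44 ± 0.05 SE, adjusted p = 3.3e-49). Its input libraries held 14.2, 13.5 and 13.1 CPM without and 15.4, 12.7 and 14.0 CPM with ethanol. In IP it ranged from 2.20 to 3.05 CPM (median 2.63) in 6 control and from 2.12 to 3.11 CPM (median 2.40) in 6 ethanol libraries. No IP library came near any input library.

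The gelatinases, which cut denatured collagen and basement membrane collagen, followed the same direction. Mmp9 (gelatinase B) was 2.94-fold lower in IP (log2 -1.56 ± 0.08, adjusted p = 3.36e-13), at 4.14 ± 0.41 CPM (SD, n = 12) against 12.3 ± 2.6 (SD, n = 6) in input. Mmp2 (gelatinase A) was 2.40-fold lower (log2 -1.26 ± 0.03, adjusted p = 1.87e-23), at 27.5 ± 1.6 CPM against 65.9 ± 3.6. Both collagenases that could be tested were lower as well, Mmp13 with 1.12 ± 0.28 CPM in IP and 4.92 ± 0.59 in input (log2 -2.13 ± 0.11) and Mmp8, the neutrophil collagenase, with 0.129 ± 0.042 and 0.612 ± 0.19 CPM (log2 -2.23 ± 0.21). For these 5 genes no IP library reached the lowest input library.

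These differences ran beside those of the microglial markers given above. The lower level of Mmp2 in IP also ran beside the meningeal fibroblast markers, of which 6 of 8 were lower and 1 higher (median log2 -1.35). The summed level of that list had a mean of 1747 CPM in IP and 2086 CPM in input. The part of other cell types in the lower IP levels was not tested.

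Most of the ADAMTS enzymes outside the lectican-cutting and procollagen groups were lower in IP or did not pass the test. Of these 8 tested genes 5 were lower, and Adamts7, Adamts17 and Adamts18 did not pass. Adamts10, which binds fibrillin, was at 20.1 ± 1.2 CPM in input and 11.3 ± 1.0 in IP (log2 -0.84 ± 0.05, adjusted p = 5.19e-18). Adamts12 (log2 -1.21), Adamts13, the enzyme that cuts von Willebrand factor (-1.49), Adamts16 (-1.74) and Adamts6 (-0.51) all had means near or under 1 CPM. Adamts15, a lectican-cutting enzyme, was also lower, at 1.76 ± 0.26 against 4.09 ± 0.47 CPM (log2 -1.22 ± 0.08).

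The members higher in IP gained at most 0.58 on the log2 scale. Adamts1, a secreted enzyme that cuts aggrecan and versican, had the largest gain (log2 0.58 ± 0.02, adjusted p = 4.71e-35), with every IP library (83.4 to 108 CPM) above every input library (57.9 to 71.0 CPM). Adamts14, one of the procollagen N-proteinases, was 1.49-fold higher (log2 0.57 ± 0.03, adjusted p = 3.77e-27), at 41.5 ± 2.1 CPM in IP and 28.0 ± 2.4 in input. Mmp19 was 1.48-fold higher (log2 0.56 ± 0.03, adjusted p = 9.97e-29), with 19.9, 20.8 and 21.3 CPM in input control, 20.0, 21.1 and 21.2 in input ethanol, and medians of 30.6 CPM in both IP groups (29.2 to 30.7 control, 30.2 to 32.2 ethanol). The 12 IP libraries of each of these 3 genes lay above its 6 input libraries.

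Of the 7 lectican-cutting ADAMTS genes, 5 were higher in IP. Besides Adamts1 these were Adamts4 (log2 0.35 ± 0.03), Adamts20 (0.44 ± 0.10), Adamts9 (0.17 ± 0.03) and Adamts5 (0.15 ± 0.03), whereas Adamts8 did not pass (0.13 ± 0.07, adjusted p = 0.137). Of the procollagen N-proteinases, Adamts3 was higher (log2 0.51 ± 0.10) and Adamts2 was not called (0.04 ± 0.06, adjusted p = 0.566).

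Membrane-type MMPs, which stay anchored to the cell surface, were higher in IP for 4 of 6 genes. Mmp17 (log2 0.51 ± 0.04), Mmp15 (0.43 ± 0.02), Mmp14 (0.25 ± 0.02) and Mmp16 (0.09 ± 0.03) were higher, Mmp24 was not called (-0.06 ± 0.11, adjusted p = 0.698) and Mmp25, at 0.132 CPM on average, was lower (-0.85 ± 0.31, adjusted p = 0.0181). The 3 stromelysins split, with Mmp3 higher (172 ± 15 CPM in input, 233 ± 25 in IP, log2 0.44 ± 0.06, adjusted p = 1.95e-05), Mmp10, at 0.196 CPM on average, lower (-0.78 ± 0.26) and Mmp11 not called (0.05 ± 0.03, adjusted p = 0.116). Mmp28 (epilysin) and Mmp23 were not called either, at 22.2 ± 1.2 and 1.28 ± 0.20 CPM in IP.

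All 4 TIMPs were higher in IP, each by a small amount. Timp1 was at 53.2 ± 3.0 CPM in input and 64.1 ± 5.2 in IP (log2 0.27 ± 0.05, adjusted p = 0.000212), and Timp2 at 2422 ± 43.9 and 2628 ± 30.1 CPM (0.12 ± 0.02, adjusted p = 3.22e-09). Timp3 (0.12 ± 0.02, adjusted p = 1.53e-07) and Timp4 (0.18 ± 0.07, adjusted p = 0.0196) overlapped between fractions. Of the ADAMTS-like genes, Adamtsl1 (log2 0.38 ± 0.03) and Adamtsl4 (0.29 ± 0.02) were higher and Adamtsl5 (-0.63 ± 0.03) and Adamtsl3 (-0.24 ± 0.03) lower.

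The input and IP libraries of replicates 4 to 6 came from the same dishes. Blocking on the dish in those 12 libraries left 32 members called, against 11659 of all 24495 genes tested. The calls of Mmp10 (adjusted p = 0.108, 0.0026 to 0.285 over all alternatives) and Mmp25 (0.0943, 0.00486 to 0.239) were lost, as they were in the same 12 libraries without the block. The call of Mmp16 was lost without input control replicate 4, with total-count scaling, and within the control or the ethanol libraries alone. That of Timp4 was lost without input ethanol replicate 4 or 6, with total-count scaling and within the control libraries alone. That of Mmp25 was lost without input control replicate 5 or input ethanol replicate 6 and within either treatment alone, and that of Mmp10 within the control libraries alone.

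**Figure D2:**
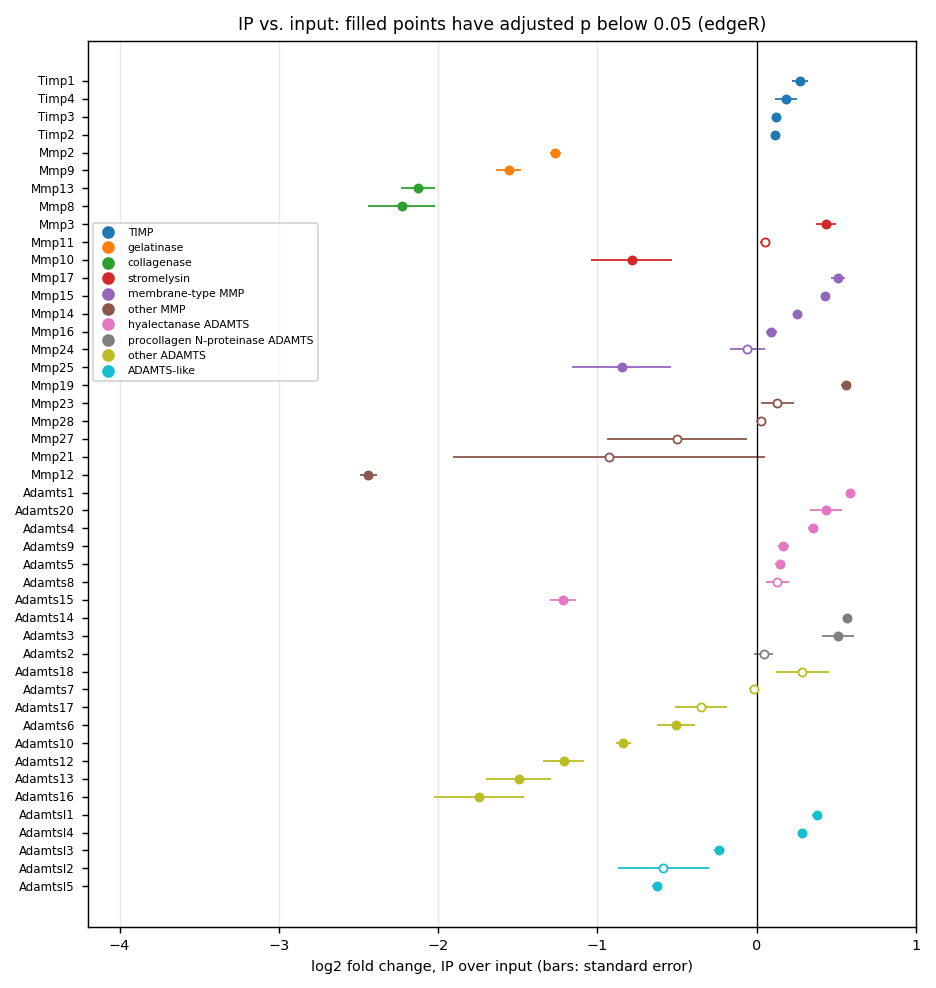
Log2 fold change of IP over input for the 46 tested members, coloured by role, with bars for the standard error and filled points for adjusted p below 0.05 in edgeR. Mmp12, Mmp8 and Mmp13 lay below -2, whereas the members higher in IP reached 0.58.

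The second comparison asked what ethanol changed in the ribosome-bound RNA. In the 12 IP libraries ethanol changed 11 of 46 tested members (8 up, 3 down), against 21.4% of all genes tested (11.9% up, 9.48% down), and 11 of the 34 members at 1 CPM or more against 36.8% of genes at that level, so the share of the family called was near that of other genes. The groups did not overlap for 7 members, 5 higher and 2 lower with ethanol, against 9.96% of all genes (5.09% higher, 4.87% lower). Those that rose were Mmp11, Mmp14, Mmp15, Mmp28, Adamts2, Adamts7, Adamtsl3 and Adamtsl4, and those that fell were Adamts1, Adamts5 and Adamts9. All changes were small, from a fall of 14.6% to a gain of 22.5%. Tested against a fold change of 1.2 in edgeR, 0 of the 11 passed, against 95 of all 24495 genes tested. In that test 0 members had an unadjusted p below 0.05, against 1133 of all genes. DESeq2 in its usual test called 11 members, against 5518 of the 17363 genes to which it gave an adjusted p.

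The same comparison in input, over 3 control and 3 ethanol libraries, asked what ethanol changed in the whole culture. Here 10 of 46 members were called (4 up, 6 down), against 15.0% of all genes tested (7.21% up, 7.78% down), and 10 of the 34 members at 1 CPM or more against 26.4% of genes at that level. The groups of 3 did not overlap for 17 members, 7 higher and 10 lower, against 27.1% of all genes (14.0% higher, 13.1% lower). Mmp11, Mmp15, Mmp2 and Adamtsl4 rose, and Mmp9, Adamts1, Adamts9, Adamts14, Adamtsl5 and Timp3 fell. Of the members, Mmp9 alone passed the test against a fold change of 1.2, against 55 of all 24495 genes tested. In all, 5 of 46 members were called in both fractions, each in the same direction in both, against 10.8% of all genes tested and 19.5% of those at 1 CPM or more, where all 5 members lay. The input libraries came from 6 of the 12 dishes of the IP comparison, so the fractions are not independent experiments.

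**Figure D3:**
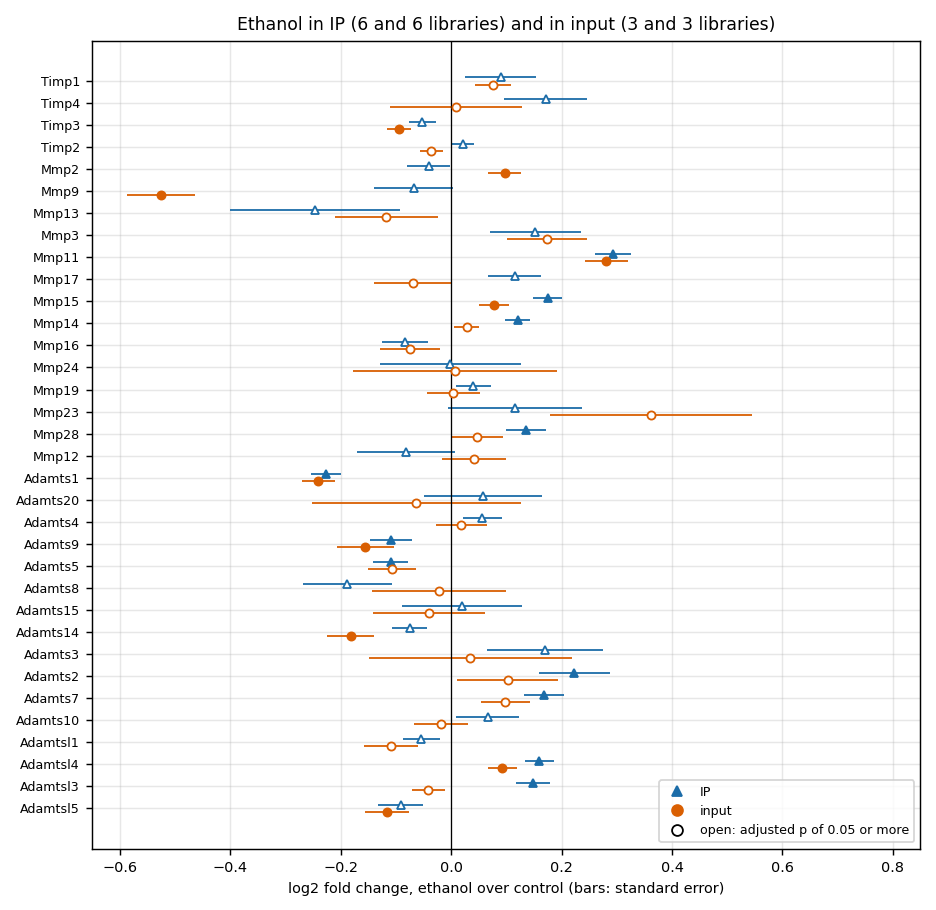
Log2 fold change of ethanol over control for the 34 members at 1 CPM or more, in IP (triangles, 6 and 6 libraries) and in input (circles, 3 and 3 libraries), with bars for the standard error and filled symbols for adjusted p below 0.05 in edgeR. Mmp9 in input lay at -0.53, Mmp11 near 0.3 and Adamts1 near -0.2 in both fractions.

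Mmp9 showed the largest ethanol change of the called members. Its input libraries held 14.2, 13.7 and 15.5 CPM in control and 11.0, 8.54 and 10.8 CPM with ethanol, a fall of 30.6% (log2 -0.53 ± 0.06, adjusted p = 2.43e-15). Every ethanol input library lay below every control input library. In IP the level was 3.82 to 4.83 CPM (median 4.09) in control and 3.47 to 4.45 CPM (median 4.15) with ethanol, and the groups overlapped (log2 -0.07 ± 0.07, adjusted p = 0.588). Over the same input libraries the summed microglial markers were at 57.2 to 59.9 CPM in control and 60.1 to 71.0 CPM with ethanol. Of the 8 markers Csf1r rose and the other 7 were not called. The part of microglia in the fall of Mmp9 was not tested.

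Mmp11 (stromelysin-3, which is activated inside the cell by furin) had the largest gain among the called members in both fractions. In IP it ranged from 29.7 to 31.7 CPM (median 29.9) in control and from 34.9 to 39.3 CPM (median 37.3) with ethanol (log2 0.29 ± 0.03, adjusted p = 1.86e-10). Its input libraries held 28.4, 29.8 and 29.4 CPM in control and 38.2, 35.2 and 33.4 CPM with ethanol (log2 0.28 ± 0.04, adjusted p = 1.22e-10). The groups did not overlap in either fraction.

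The membrane-type enzymes Mmp15 and Mmp14 rose in IP. Mmp15 was at 109 to 116 CPM (median 111) in control and 116 to 130 CPM (median 128) with ethanol (log2 0.18 ± 0.03, adjusted p = 4.11e-07). In input it moved from 83.4, 85.7 and 87.6 CPM to 88.1, 91.5 and 92.2 CPM (log2 0.08 ± 0.03, adjusted p = 0.0294). Mmp14 was at 247 to 266 CPM (median 261) in IP control and 273 to 285 CPM (median 282) in IP ethanol (log2 0.12 ± 0.02, adjusted p = 5.43e-05). In input it was not called, with 221, 220 and 229 CPM against 229, 224 and 233 CPM (log2 0.03 ± 0.02, adjusted p = 0.519). Neither gene's IP groups overlapped. The other 4 membrane-type genes, Mmp16, Mmp17, Mmp24 and Mmp25, were not called in either fraction.

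Mmp2 was called in input, with 65.2, 60.7 and 65.1 CPM in control and 67.0, 71.7 and 65.9 CPM with ethanol (log2 0.10 ± 0.03, adjusted p = 0.0108). In IP its groups overlapped, at 25.6 to 29.6 CPM (median 27.9) and 23.6 to 28.6 CPM (median 27.4), with a log2 of -0.04 ± 0.04 and an adjusted p of 0.539. Mmp28 was called in IP, at 20.4 to 21.9 CPM (median 21.3) against 21.9 to 24.1 CPM (median 23.2) with ethanol (log2 0.14 ± 0.04, adjusted p = 0.00306). Its input values were 20.0, 21.7 and 22.3 CPM in control and 22.3, 22.3 and 21.7 CPM with ethanol (log2 0.05 ± 0.05, adjusted p = 0.622). Mmp12, Mmp13, Mmp3, Mmp19 and Mmp23 were called in neither fraction, and for Mmp3 the values were log2 0.15 ± 0.08 in IP and 0.17 ± 0.07 in input (adjusted p = 0.256 in both). The result for Mmp3 depended on the setting. With the replicate number as a block in edgeR it was called higher in IP (adjusted p = 9.28e-10) and in input (8.36e-13). In IP replicates 4 to 6 alone Mmp3 was called higher (log2 0.21, adjusted p = 2.85e-09) and Mmp13 lower (log2 -0.50, 0.0391), but neither in replicates 1 to 3.

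The rises of Mmp11, Mmp14, Mmp15 and Mmp28 in IP ran beside those of astrocyte markers, of which 4 of 8 rose in IP (Aqp4, Slc1a3, Slc1a2 and Sox9) and none fell. The summed level of the astrocyte markers was 1730 to 1808 CPM in IP control and 1854 to 1926 CPM in IP ethanol, without overlap. In input it was 1099 to 1145 against 1152 to 1179 CPM, with 4 of 8 genes rising and 3 falling. Their part in the changes of the MMPs was not tested.

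**Figure D4:**
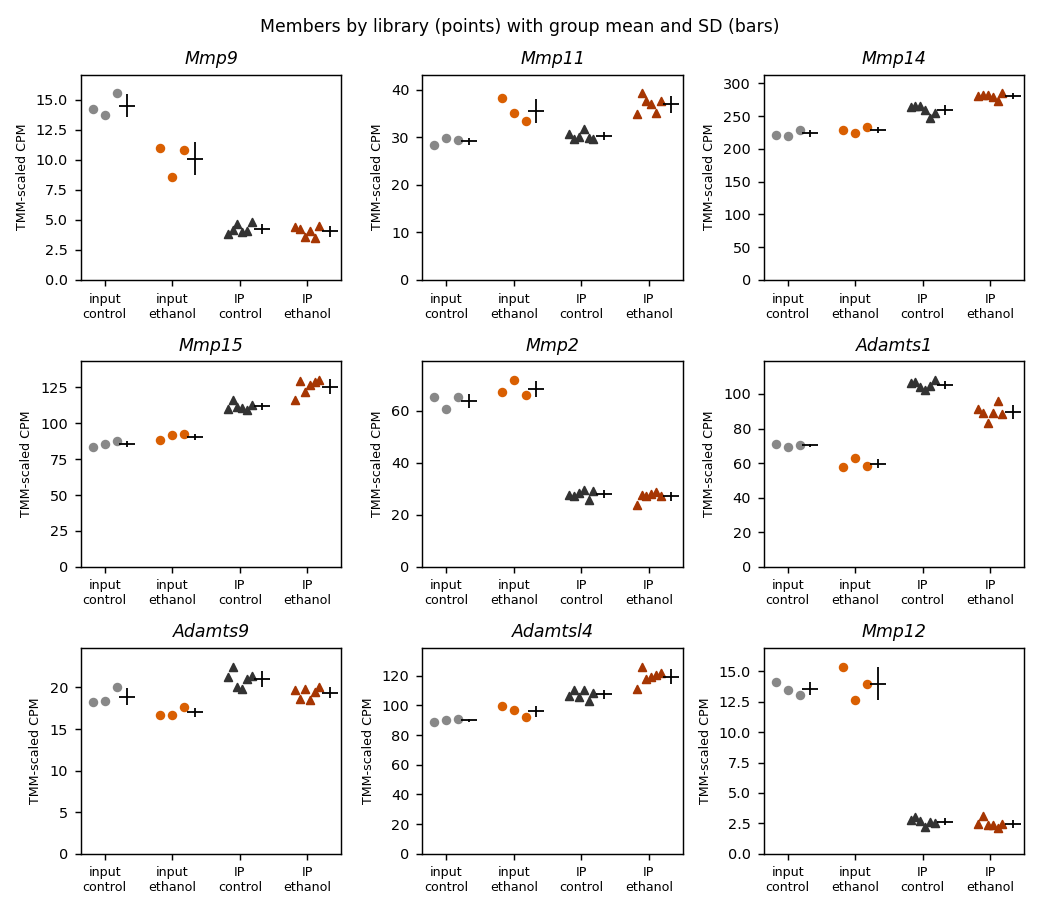
TMM-scaled CPM of 9 members in each library (points) with group means and SD (bars) for the 4 groups. The ethanol libraries of Mmp9 lie below the control libraries in input and overlap them in IP, whereas Mmp11 and Adamts1 separate by treatment in both fractions and Mmp2 and Mmp12 separate by fraction.

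Adamts1 had the lowest adjusted p of the lectican-cutting enzymes under ethanol, and it fell in both fractions. In IP it went from 102 to 108 CPM (median 105) in control to 83.4 to 95.8 CPM (median 89.0) with ethanol, a fall of 14.6% (log2 -0.23 ± 0.03, adjusted p = 9.98e-10). Its input libraries went from 71.0, 69.4 and 70.4 CPM to 57.9, 62.7 and 58.2 CPM, a fall of 15.4% (log2 -0.24 ± 0.03, adjusted p = 1.26e-13). The treatments were separated in both fractions.

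Adamts9 and Adamts5 fell by less. Adamts9, which also cuts versican, was at 19.8 to 22.5 CPM (median 21.1) in IP control and 18.5 to 20.1 CPM (median 19.5) in IP ethanol (log2 -0.11 ± 0.04, adjusted p = 0.0283). Its input libraries held 18.2, 18.4 and 20.1 CPM in control and 16.7, 16.7 and 17.6 CPM with ethanol (log2 -0.16 ± 0.05, adjusted p = 0.0215). The IP groups overlapped and the input groups did not. Adamts5 (aggrecanase-2) fell in IP from 28.1 to 29.8 CPM (median 29.3) to 26.4 to 27.1 CPM (median 26.9), with no overlap (log2 -0.11 ± 0.03, adjusted p = 0.00851). In input it was not called, with 26.0, 25.1 and 27.5 CPM against 24.5, 24.3 and 24.4 CPM (log2 -0.11 ± 0.04, adjusted p = 0.0864). Of the 7 lectican-cutting genes 3 fell in IP and 2 in input, and Adamts4, Adamts8, Adamts15 and Adamts20 were called in neither fraction.

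Beside these falls, the mural and smooth muscle markers Acta2 (log2 -0.56 in IP, -0.59 in input) and Tagln (-0.51 and -0.52) also fell with ethanol, Myh11 fell in IP (-0.34), and the other 5 of that list were not called in either fraction. The summed level of the list was 1630 to 1763 CPM in IP control and 1052 to 1249 CPM in IP ethanol, and 1300.3 to 1370.3 against 897 to 967 CPM in input, mostly from Acta2, and Kcnj8, at 0.00915 CPM, was close to silent. The endothelial markers Kdr and Vwf fell in IP, 2 of 6 tested, and 1 of the 6 fell in input. The summed level of the endothelial list was 14.7 to 15.8 CPM in IP control and 13.4 to 13.9 CPM in IP ethanol, and 14.5 to 15.3 against 12.4 to 14.6 CPM in input, with Cldn5 and Tie1 too low to be tested. The summed neuronal markers were also lower with ethanol, with means of 141 against 127 CPM in IP and 113 against 105 CPM in input and no overlap in either, although of 8 genes only Stmn2 fell in both fractions, and Slc17a7 rose in input. Those of the oligodendrocyte lineage were at 228 to 242 against 204 to 224 CPM in IP, with 2 of 8 genes rising and 1 falling. Of the meningeal fibroblast markers 0 of 8 were called in IP, and 1 fell in input. Their summed level overlapped between treatments, at 1735 to 1776 against 1593 to 1846 CPM in IP and 2075 to 2133 against 1992 to 2120 CPM in input. The part of any of these cell types in the ADAMTS changes was not tested.

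The procollagen N-proteinases, which trim fibrillar procollagens, differed among themselves. Adamts14 fell in input, from 29.4, 27.8 and 31.8 CPM to 25.2, 27.2 and 26.3 CPM (log2 -0.18 ± 0.04, adjusted p = 0.000292). In IP it was at 40.1 to 45.4 CPM (median 42.4) in control and 37.1 to 41.9 CPM (median 40.5) with ethanol and was not called (log2 -0.08 ± 0.03, adjusted p = 0.0887). Adamts2 rose in IP, from 4.08 to 5.44 CPM (median 5.08) to 5.26 to 6.00 CPM (median 5.67), with overlapping groups (log2 0.22 ± 0.06, adjusted p = 0.00693). Its input values were 5.23, 4.72 and 4.85 CPM in control and 4.69, 4.96 and 6.31 CPM with ethanol, and it was not called there (log2 0.10 ± 0.09, adjusted p = 0.56). Adamts3 was called in neither fraction.

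Adamts7 rose in IP, from 21.9 to 24.0 CPM (median 23.1) to 23.7 to 27.3 CPM (median 25.7), with overlapping groups (log2 0.17 ± 0.04, adjusted p = 0.000304). In input it was at 23.4, 23.1 and 24.8 CPM in control and 25.8, 24.2 and 26.6 CPM with ethanol (log2 0.10 ± 0.04, adjusted p = 0.135). The other 7 tested ADAMTS genes outside the lectican-cutting and procollagen groups did not pass the test in either fraction.

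Among the ADAMTS-like genes, Adamtsl4, which binds fibrillin microfibrils, rose in both fractions. In IP it went from 103 to 111 CPM (median 107) to 111 to 126 CPM (median 120), without overlap (log2 0.16 ± 0.03, adjusted p = 3.34e-06). In input it went from 88.6, 90.3 and 90.8 CPM to 99.3, 96.7 and 92.3 CPM (log2 0.09 ± 0.03, adjusted p = 0.00573). Adamtsl3 rose in IP alone by these tests, from 46.4 to 54.9 CPM (median 49.8) to 54.2 to 57.5 CPM (median 55.6), with overlap (log2 0.15 ± 0.03, adjusted p = 0.000191). Its input values were 63.5, 63.6 and 62.6 CPM in control and 64.8, 61.8 and 58.3 CPM with ethanol (log2 -0.04 ± 0.03, adjusted p = 0.446). Adamtsl5 fell in input, from 32.7, 32.6 and 33.9 CPM to 31.2, 30.8 and 29.8 CPM (log2 -0.12 ± 0.04, adjusted p = 0.0271). In IP it was at 19.8 to 22.4 CPM (median 21.5) in control and 18.0 to 22.4 CPM (median 19.7) with ethanol (log2 -0.09 ± 0.04, adjusted p = 0.111). Adamtsl1 was not called in either fraction.

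Of the inhibitors, Timp3 was called in input, where it fell from 441, 425 and 438 CPM to 402, 410 and 413 CPM (log2 -0.09 ± 0.02, adjusted p = 0.000477). In IP it was at 444 to 491 CPM (median 468) in control and 434 to 457 CPM (median 451) with ethanol, with overlap (log2 -0.05 ± 0.02, adjusted p = 0.119). Timp1 (log2 0.09 ± 0.06 in IP and 0.08 ± 0.03 in input), Timp2 (0.02 ± 0.02 and -0.04 ± 0.02) and Timp4 (0.17 ± 0.08 and 0.01 ± 0.12) were called in neither fraction.

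Some of the smaller ethanol calls were lost when 1 library was left out, with log2 fold changes that kept their sign. In IP, the call of Adamts2 was lost without IP control replicate 3 (log2 0.17 to 0.25 over the fits without 1 library), and that of Adamts9 without IP control replicate 2 or IP ethanol replicate 4 (-0.13 to -0.09). In input, calls were lost for Adamts14 without input control replicate 6, for Adamts9 without input control replicate 6 or input ethanol replicate 4 or 5, and for Adamtsl4 without input ethanol replicate 4. Those of Adamtsl5 were lost without input control replicate 6 or input ethanol replicate 5 or 6, those of Mmp15 without input control replicate 4 or 5 or input ethanol replicate 5 or 6, and those of Mmp2 without replicate 5 of either group. DESeq2 did not call Mmp15 or Mmp2 in input, and Mmp15 was not called there with the correction for GC content and length given next. The calls of Mmp9, Mmp11, Adamts1 and Timp3 in input, and of Mmp11, Mmp14, Mmp15, Mmp28, Adamts1, Adamts5, Adamts7, Adamtsl3 and Adamtsl4 in IP, were kept without any 1 library. With fewer IP libraries, that of Adamts5 was lost in replicates 1 to 3 and in replicates 4 to 6. Those of Adamts7 and Mmp28 were lost in replicates 1 to 3 and that of Adamtsl3 in replicates 4 to 6.

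The split of the IP calls by direction moved with a correction for base composition and length. With a spline on GC content and transcript length removed from each library, 16 members were called in IP, 7 up and 9 down, in place of 8 up and 3 down. The split moved over all genes as well. Of 24495 genes tested, 5363 were called with the correction, 48.8% of them up, against 5233 without it, 55.6% of them up. Adamts2 was then lost (adjusted p = 0.0505, 0.0016 to 1 over its alternatives), and Adamts8, Adamts14, Adamtsl1, Adamtsl5, Mmp16 and Timp3 were called lower, at log2 -0.23, -0.16, -0.11, -0.15, -0.11 and -0.08. The other 10 calls kept their direction and their side of the threshold under this correction. In input it gave 11 members, 4 up and 7 down, with Timp1 called higher (log2 0.12) and Adamts5 lower (-0.13). Over all genes tested in input, 3664 were called with the correction, 47.4% of them up, against 3672 without it, 48.1% of them up.

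Whether ethanol acted differently in the 2 fractions was tested by the interaction of treatment and fraction over the 18 libraries. By edgeR 0 of 46 members were called, against 0.0% of all genes tested, and DESeq2 also called 0 members. In edgeR 7 of 46 members had an unadjusted p below 0.05, against 1459 of all 24495 genes tested. The interaction was 0.45 ± 0.11 on the log2 scale for Mmp9 (adjusted p = 0.675) and 0.09 ± 0.04 for Mmp15 (0.83). Blocking on the dish, in the 12 libraries whose dishes gave both fractions, removes differences between dishes. In that fit Mmp9 (0.44 ± 0.11, adjusted p = 0.021, 0.021 to 1 over its alternatives) and Mmp15 (0.15 ± 0.04, adjusted p = 0.047, 0.047 to 1) were called, against 0.416% of all genes. Of the 102 genes called in it, 92.2% had a positive interaction, the direction of both members. The interaction was not fitted to these 12 libraries without the block, so the block and the choice of libraries cannot be told apart. With the GC content and length correction added to the block, neither was called (Mmp9 0.39 ± 0.10, adjusted p = 0.076; Mmp15 0.07 ± 0.03, adjusted p = 0.815).

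The sense-strand count exceeded the unstranded count by over 10% for 6 members. At an overlap of genes on opposite strands such counting leaves read pairs unassigned, and the deposited single-library counts by strand show how many. The sense count was 204% of the unstranded count for Timp3, which lies inside Syn3 on the opposite strand and shares 21.3% of its exon bases with it. It was 143% for Mmp19, 131% for Adamts8, 128% for Mmp28, 121% for Mmp24 and 117% for Adamts9, all of which share exon bases with other genes, while for 36 of the 46 members it lay within 5% of it. The other 4 were Adamts4 at 106%, Timp4 at 94.5%, Adamts13 at 85.7% and Mmp21 at 33.3%, the last from 12 unstranded read pairs in all. For Adamts13 the log2 fold change of IP over input was -1.79 ± 0.22 by sense counts (adjusted p = 1.68e-10), in place of -1.49. The unstranded levels of the 6 genes above 110% given above leave those read pairs out.

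By sense counts Timp3 stood at 169.6 CPM per kilobase in input and 193.5 in IP, above every other member but Timp2. Its level was then higher in IP by log2 0.19 ± 0.02 (adjusted p = 2.59e-15), and the fractions no longer overlapped, with 845 CPM in the highest input and 871 CPM in the lowest IP library. Its fall with ethanol was then called in both fractions, with 827 ± 19 CPM (SD, n = 3) against 775 ± 4.0 (n = 3) in input (log2 -0.10 ± 0.02, adjusted p = 0.000197) and 933 ± 20 CPM (n = 6) against 894 ± 17 (n = 6) in IP (log2 -0.06 ± 0.02, adjusted p = 0.0311, 0.00183 to 1 over all alternatives). Adamts8 was higher in IP than in input by sense counts (log2 0.15, adjusted p = 0.0457). For the 45 members that passed the filter by sense counts, no other call of the 4 comparisons changed.

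**Figure D5:**
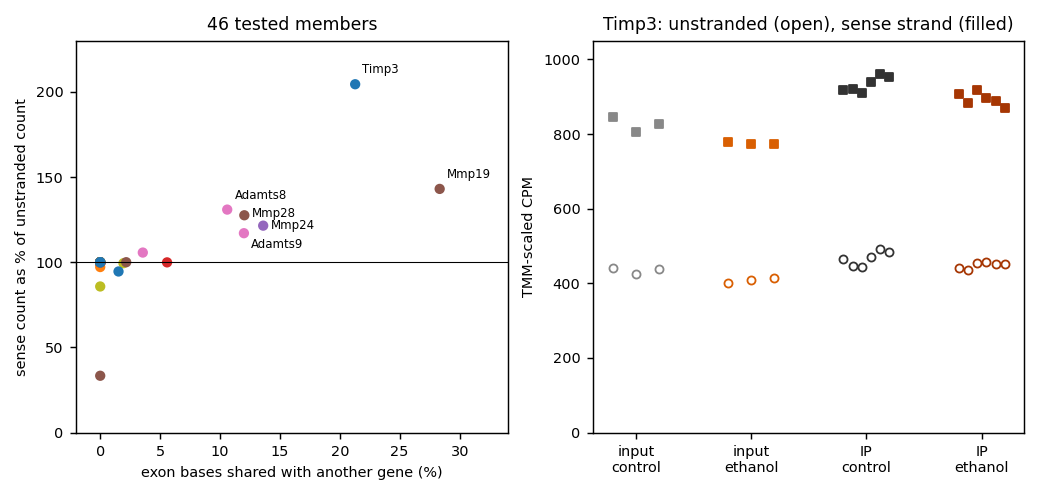
Left, sense count as a percentage of the unstranded count against the percentage of exon bases shared with another gene, for the 46 tested members. Right, Timp3 in each library (TMM-scaled CPM) by unstranded (open) and sense-strand (filled) counts, where the sense level is 1.87 to 2.06 times the unstranded level in the 18 libraries.

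A list of 40 other genes of extracellular metalloproteinase control, all of which were tested, gives the surroundings of the family. IP vs. input, 16 were higher and 12 lower, which is 70.0% called against 51.0% of all genes tested and 76.3% of those at 1 CPM or more. Under ethanol 11 rose and 4 fell in IP, 37.5% called against 21.4% and 36.8%, and 7 rose and 9 fell in input, 40.0% called against 15.0% and 26.4%. The list itself was not cut at 1 CPM, and Tfpi2, Pi15, Plg, Adam33, Acan, Hapln1 and Hapln2 lay under that level. The shares of genes at 1 CPM or more are therefore not a like comparison for the whole list. Among the lecticans, which ADAMTS enzymes cut, and the link proteins that hold them to hyaluronan, 3 of 8 rose with ethanol in both fractions. Bcan (log2 0.24 in IP, 0.24 in input), Ncan (0.33, 0.31) and the link protein gene Hapln4 (0.56, 0.59) rose, and Vcan fell in input (-0.15). Bcan (1.06) and Ncan (0.96) were also higher in IP than in input, whereas Vcan was lower (-1.27).

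Of the inhibitors and clearance receptors, Lrp1, the endocytic receptor that takes up MMPs and ADAMTS enzymes, rose in both fractions (log2 0.14 in IP, 0.08 in input), A2m, a general proteinase trap, rose in IP (0.09), Thbs1 fell in both (-0.31, -0.34) and Reck, a membrane-anchored inhibitor, was called in neither. Among activating enzymes, Furin rose in IP (0.07), Plau, the urokinase gene, fell in IP (-0.20), and Pcsk6 (-0.07) and Bsg (-0.06) fell in input. Of 8 ADAM sheddases, Adam8, Adam10 and Adam17 rose in both fractions, Adam12 fell in both, and Adam15 fell in input. The last group held papilin-related genes, Papln and Thsd4 among them, and fibrillin partners of ADAMTS-like proteins. Of these, Ltbp3 (0.15) and Ltbp4 (0.19) rose in IP, Thsd4 fell in both (-0.13, -0.14), and Fbn1 and Ltbp2 fell in input (-0.11, -0.08).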

How the data were processed

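RNA of 12 TRAP (IP) and 6 input samples was sequenced on an Illumina instrument. The authors trimmed reads with Trimmomatic, aligned them with STAR to GRCm38 with Ensembl annotation and deposited counts of read pairs per gene, unstranded in 1 table and by strand for each library; versions are not given in the sources used here. The table and the single-library unstranded counts differed in 0 values. On average 5.5% of read pairs were ambiguous and 3.6% multimapping.

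The count filter was a sum of 10 read pairs or more across the 18 libraries. Genes past it were analysed with edgeR 4.0.16 (R 4.3.3; TMM scaling, robust quasi-likelihood test, Benjamini-Hochberg adjustment over all 24495 genes, threshold 0.05). CPM were scaled by TMM. DESeq2 1.42.0, other scalings, filters, sense counts, a test against a fold change of 1.2, blocks and leaving out single libraries were alternatives. Another was a linear fit of natural splines of 4 degrees of freedom on GC content and length, given to edgeR as an offset. Code was tested on simulated data. Transcript lengths, coordinates and overlaps are from GENCODE M21 (GRCm38), promoters from RefSeq (GRCm38.p6). Depth was 74239854 to 132810705 pairs on genes per library. Input and IP of 1 dish share the dish by their titles, with correlations of deviations from group means of 0.019 to 0.153 within dishes. Between treatments, dishes of equal number have nothing else in common in the labels.

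The members and lists were chosen with earlier results of these data known. Members with a mean of at least 1 CPM, or called, were named, and values in every sample were given for members with a mean of at least 5 CPM that were called for ethanol or were among the 3 largest changes in each direction between fractions. Genes named beside these are from the marker and pathway lists.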

Additional observations from a re-analysis of the deposited data

Results flagged for a closer look

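In groups of 6 libraries, 82 in all, 4 held a library far from the other 5, and chance flags about 1 group in 20. Adamts14 was at 37.1 CPM in IP ethanol replicate 3, against 40.4 to 41.9 in the others. Adamts8 was at 2.65 CPM in IP control replicate 1, against 3.21 to 3.54. Mmp12 was at 3.11 CPM in IP ethanol replicate 2, against 2.12 to 2.48. Mmp2 was at 23.6 CPM in IP ethanol replicate 1, against 27.1 to 28.6.

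The ethanol effect differed between fractions for 2 members by the interaction with the dish as a block, by 0.44 (log2, IP minus input) for Mmp9 and by 0.15 for Mmp15. That fit used the 12 libraries of dishes with both fractions. Neither gene was called without the block, in a fit over all 18 libraries, so the block and the libraries changed together.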

How the results depend on the processing

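No named member changed direction with a call under any alternative. Against a fold change of 1.2, 22 members were called IP vs. input, 0 for ethanol in IP and 1 for ethanol in input. Of all 24495 genes tested, 4936, 95 and 55 were called in that order. With the dish as a replicate block, 2 members were called for ethanol by fraction, against 102 of all genes tested. Leaving out 1 library at a time gave 32 to 35 members IP vs. input, 10 to 14 for ethanol in IP, 8 to 10 for ethanol in input and 0 to 0 by fraction. Over all genes tested the same fits called 12069 to 12503, 4616 to 5244, 2861 to 3164 and 0 to 1. The replicate number as a block pairs control and ethanol dishes only by number (correlations -0.104 to 0.221 in IP and 0.019 to 0.066 in input, with 3 of 12 and 5 of 6 libraries correlating best with their own number). It gave 14 members in IP and 11 in input, against 5782 and 3829 of all 24495 genes tested. It added Mmp3 in both fractions and Mmp17 and Timp1 in IP. The dish block gave 32 members IP vs. input, against 11659 of all genes tested, and, beside the lost calls of Mmp10 and Mmp25, changed no other call there. The causes were not tested. IP replicates 4 to 6 gave 10 members for ethanol and replicates 1 to 3 gave 8, each sharing 7 with the full set. Over all genes tested they called 3714 and 2995. The calls of Adamts5 and Adamts9 were lost in both, those of Adamts2 and Adamtsl3 in replicates 4 to 6, and those of Adamts7 and Mmp28 in replicates 1 to 3. Mmp3, Mmp13 and Timp3 were added in replicates 4 to 6 and Adamts14 in replicates 1 to 3. For IP vs. input, ethanol in IP, ethanol in input and ethanol by fraction, in this order, the values of 41 named members were weaker in 29, 23, 26 and 0 cases and stronger in 2, 28, 11 and 2. Of the 12 tested members under 1 CPM, 7 were called IP vs. input, all 7 lower in IP. Of all 24495 genes tested 12498 were called, and 10258 of these were among the 13453 genes at 1 CPM or more.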
